A study of Mus musculus with 12 samples.

Results

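F-box protein genes other than Ccnf were taken as all protein-coding genes of the deposited table whose symbol begins with Fbxl, Fbxw or Fbxo followed by a number, which gave 78 of 54532 genes, with 18 Fbxl, 23 Fbxw and 37 Fbxo genes. RNA was sequenced from C2C12 cells, an established mouse myoblast line, 48 h after transfection with 30 nM siRNA, as 12 libraries in 4 groups of 3: siCONTROL, siKEAP1, siCCNF and siKEAP1/siCCNF. The labels call the libraries of a group biological replicates without saying how the cultures were separated, so the p-values measure the spread between these libraries. All groups were the same line in growth medium, and all were siRNA depletions, which leave part of the mRNA in place. Which Ccnf siRNA was sequenced, and whether the double depletion used 30 nM in total or of either siRNA, is not given in the sources used here.

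F-box proteins are the substrate-binding subunits of SCF ubiquitin ligases, in which the scaffold CUL1 and the linker SKP1 join a RING subunit to an exchangeable F-box protein that decides what is ubiquitylated. The family is divided by the domain that recognises the substrate, with leucine-rich repeats in the Fbxl proteins, WD40 repeats in the Fbxw proteins and other or no known domains in the Fbxo proteins. CCNF, cyclin F, is an F-box protein outside these names, while KEAP1 belongs to another class of adaptor, the BTB proteins that serve CUL3 and hold the transcription factor NRF2 in check. The question here was whether lowering CCNF, KEAP1 or both shifted the mRNAs of the other F-box proteins.

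Keap1 and Ccnf mRNAs followed the labels. Keap1 was at 90.0, 89.0 and 84.3 CPM in the siCONTROL libraries, 12.3, 12.8 and 12.7 after siKEAP1, 86.5, 88.6 and 80.3 after siCCNF and 22.2, 27.0 and 23.1 after siKEAP1/siCCNF, where CPM are read counts brought to a common library size with TMM factors. Its mean after siKEAP1/siCCNF was 27.5% of the siCONTROL mean, against 14.4% after siKEAP1, so the double depletion left more Keap1 mRNA. Ccnf was at 85.5, 80.1 and 77.7 CPM in the siCONTROL libraries, 56.8, 64.9 and 56.4 after siKEAP1, 19.7, 20.5 and 21.3 after siCCNF and 23.7, 24.1 and 25.6 after siKEAP1/siCCNF, which is 25.3% of the siCONTROL mean after siCCNF, 30.2% after both siRNAs and 73.2% after siKEAP1 alone. The total count per library was 18464209 to 37743198, and every siCCNF library was deeper than every siCONTROL library. In siCONTROL replicate 1 and siKEAP1/siCCNF replicate 3 the deviation from the group mean followed gene length, with r of -0.31 and -0.28 across 15122 genes. The member counts and named members were refitted without both. Most muscle differentiation genes checked were also highest in siCONTROL replicate 1 within its group, such as Myog at 74.6 CPM beside 32.0 and 29.3. Of the markers checked, endothelial, epithelial, leukocyte, adipocyte and neuronal genes were at or near 0, apart from Cd68 at up to 9.97 and Fabp4 at up to 3.32 CPM, highest after siKEAP1, and Cdh1 at up to 1.94 CPM, highest after both siRNAs. The summed level of 6 myoblast markers was 1330 to 1531 CPM in siCONTROL, 850 to 874 after siKEAP1, 696 to 733 after siCCNF and 690 to 756 after both.

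Of the 78 members, 58 had enough counts to be tested: 18 of 18 Fbxl, 9 of 23 Fbxw and 31 of 37 Fbxo genes. The other 20 were 14 Fbxw genes, 11 of them without a read in any library, and Fbxo15, Fbxo27, Fbxo39, Fbxo40, Fbxo41 and Fbxo43. Per unit length the tested members spanned a wide range in siCONTROL cells, with a median of 6.32 FPKM beside 5.28 FPKM over all genes tested. Fbxw8, an adaptor that works with CUL7, was highest at 30.6 ± 2.55 FPKM (SD, n = 3), followed by Fbxw11 at 29.1 ± 1.47 and Fbxo5 at 24.8 ± 1.54. The top pair did not differ beyond their spread. In all, 21 members were above 10 FPKM and 8 were below 1 FPKM, among them Fbxo44 at 0.516 ± 0.332 and Fbxl21 at 0.127 ± 0.0294 FPKM.

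F-box genes were called at shares that mostly lay near those of all genes, and the differences between these shares were not tested. Every test below is edgeR's quasi-likelihood test on all 15122 genes, with p-values adjusted over all of them by the Benjamini-Hochberg method. A gene is called higher or lower at an adjusted p under 0.05, and differences are on the log2 scale with their standard error. After siKEAP1, 9 members were higher, beside 20.4% of all genes, and 12 were lower, beside 20.2%. After siCCNF, 13 members were higher and 8 lower, where all genes gave 22.5% and 25.5%, and with total library sizes in place of TMM these counts were 12 and 11. After both siRNAs, 11 were higher and 10 lower against siCONTROL, with 20.6% and 23.6% of all genes. A fit of the compared libraries only gave 8 and 4. Adding siCCNF to siKEAP1 raised 11 members and lowered 16, beside 24.1% and 26.9%. Adding siKEAP1 to siCCNF raised 3 and lowered 2, beside 3.00% and 2.19%, the fewest calls of any comparison, and the 5 members became 1 to 6 in fits that each left out 1 library, with 1 left without siCCNF replicate 1 or 3. With total library sizes the split was 4 higher and 1 lower.

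As shares of the 58 tested members, the higher calls were 15.5% after siKEAP1, 22.4% after siCCNF and 19.0% after both, and the lower calls 20.7%, 13.8% and 17.2%. The median difference of the members was 0.03 after siKEAP1, -0.04 after siCCNF and -0.03 after both, where the medians of all genes were -0.01, 0.01 and 0.01. Changes over 2-fold were few. They were called for 4 members after siKEAP1, beside 11.5% of all genes, for 2 after siCCNF, beside 11.4%, and for 0 after both siRNAs against siCONTROL, beside 10.3%, where edgeR gave 25 members an unadjusted p under 0.05 and DESeq2 called 22 at the adjusted threshold without a limit on size. They numbered 5 for siKEAP1/siCCNF against siKEAP1, beside 14.5%, and 2 for siKEAP1/siCCNF against siCCNF, beside 0.727%. In no pairwise comparison were 20 of the 58 called, among them Fbxo11, Fbxl5 and Fbxl17. The matching share of all genes was not computed, so this count cannot be read as a trait of the family.

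**Figure D1:**
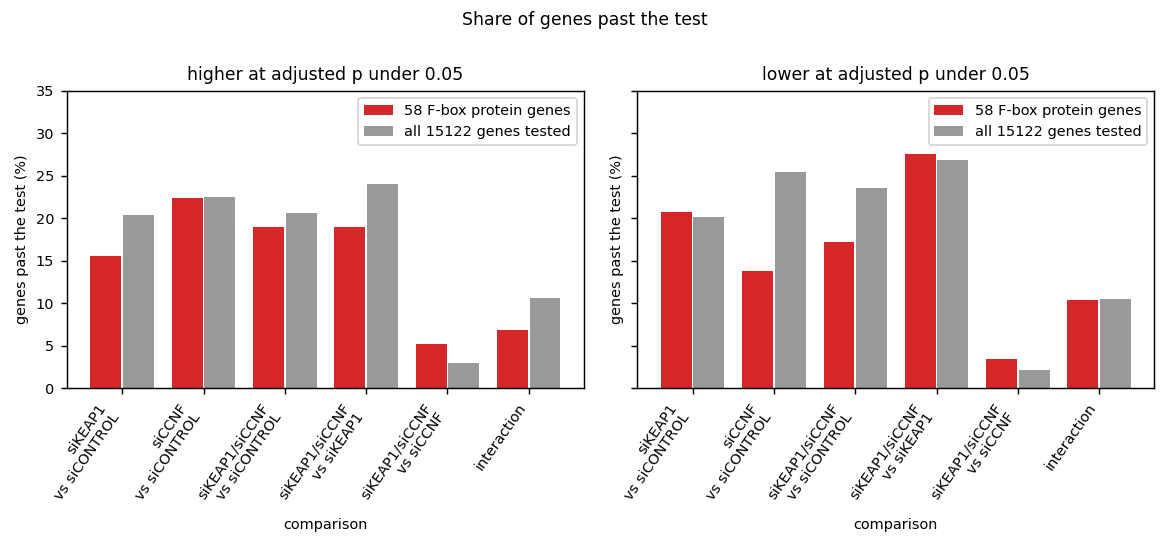
Percentage of genes called higher (left) and lower (right) at an adjusted p under 0.05 in each comparison, for the 58 tested F-box protein genes (red) and all 15122 genes tested (grey). The bars lie close together in most comparisons, and the red bar is the shorter for genes lower after siCCNF, at 13.8% beside 25.5%.

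**Figure D2:**
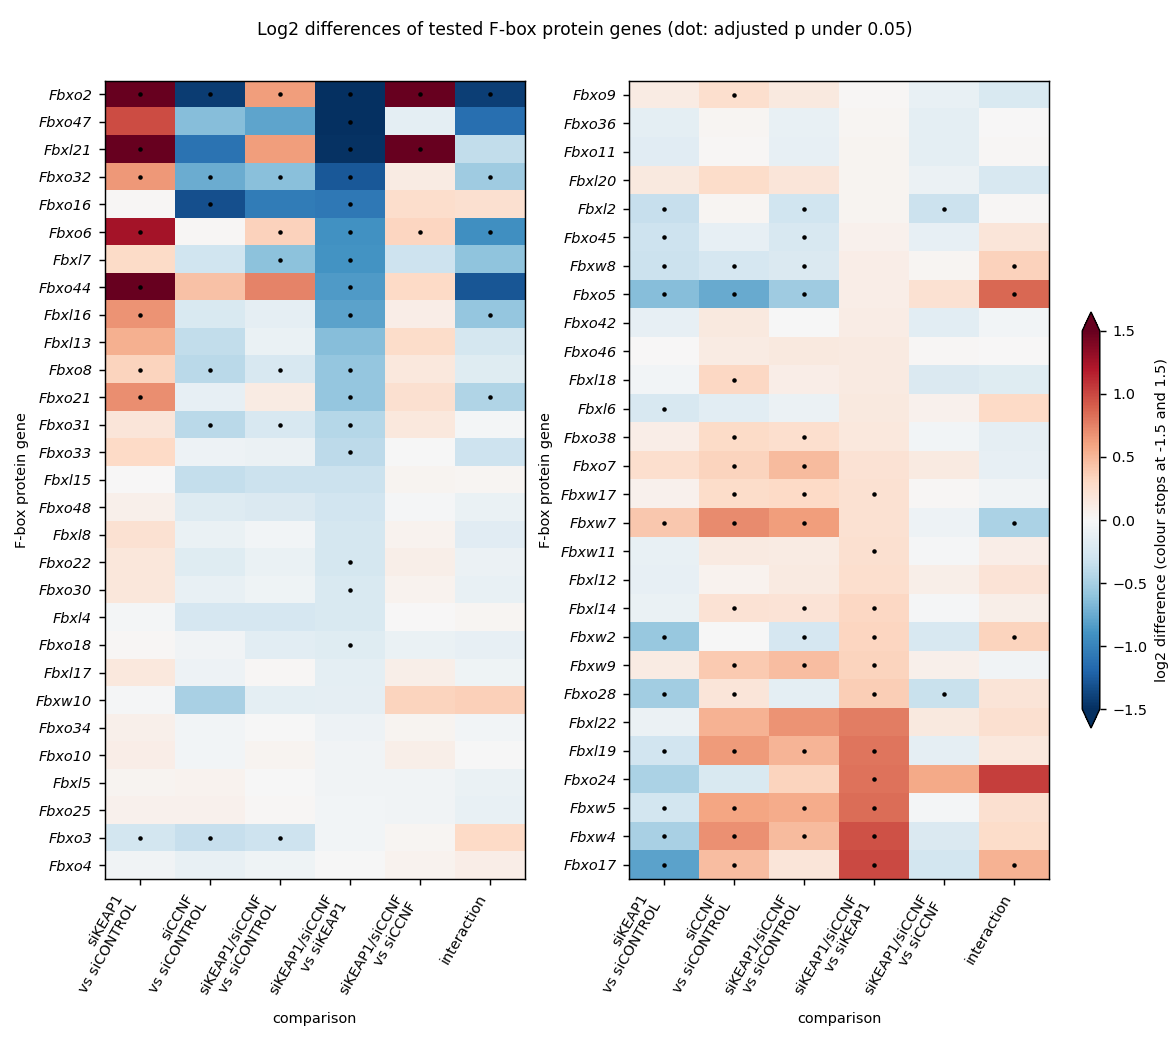
Log2 differences of tested F-box protein genes (rows, in the order of siKEAP1/siCCNF against siKEAP1) in the 5 pairwise comparisons and the interaction (columns), with a dot at an adjusted p under 0.05 and colours that stop at -1.5 and 1.5. Fbxo2 has a dot in all 6 columns, and the column of siKEAP1/siCCNF against siCCNF has dots for 5 genes.

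The largest change in the family, that of Fbxo2 after siKEAP1, was in the glycoprotein-binding group. Fbxo2, Fbxo6, Fbxo17, Fbxo27 and Fbxo44 share a domain that in Fbxo2 and Fbxo6 recognises N-linked sugar chains on misfolded glycoproteins brought out of the endoplasmic reticulum. Of the 4 tested, Fbxo2, Fbxo6 and Fbxo44 were higher after siKEAP1 and Fbxo17 was lower. Fbxo27 had 1 read in all libraries together and was not tested. Fbxo2, Fbxo6 and Fbxo44 are neighbours within 20709 bases of chromosome 4, and Fbxo44 and Fbxo2 lie head to head with 138 bases between their annotated ends, whereas Fbxo17 is on chromosome 7. In GRCm38 coordinates Fbxo6 spans chr4:148145716-148152140 on the minus strand, Fbxo44 chr4:148152800-148160482 on the minus strand and Fbxo2 chr4:148160621-148166424 on the plus strand.

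The starts of these 3 neighbours are shown because the genes moved in the same direction after siKEAP1. The start of Fbxo5 is shown because, against siCONTROL, it moved with genes of cycling cells, described further on. The windows run 5' to 3' from 250 bases before to 50 bases after a RefSeq transcript start on GRCm38.p6, with the 50 transcribed bases in capitals. Where RefSeq lists several starts, the one farthest upstream is printed. These starts need not be the annotated gene ends given above. The Fbxo44 window lies wholly inside its annotated span and does not reach the end that faces Fbxo2. They are Fbxo2 (chr4:148160418-148160717, plus strand), Fbxo44 (chr4:148160045-148160344, minus strand), Fbxo6 (chr4:148152086-148152385, minus strand) and Fbxo5 (chr10:5805416-5805715, minus strand).
Fbxo2: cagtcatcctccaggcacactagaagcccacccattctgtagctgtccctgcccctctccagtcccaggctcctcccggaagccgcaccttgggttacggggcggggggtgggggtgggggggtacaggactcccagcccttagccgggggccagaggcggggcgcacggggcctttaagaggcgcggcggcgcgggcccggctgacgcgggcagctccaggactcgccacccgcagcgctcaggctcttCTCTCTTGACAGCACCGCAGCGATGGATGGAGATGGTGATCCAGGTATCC
Fbxo44: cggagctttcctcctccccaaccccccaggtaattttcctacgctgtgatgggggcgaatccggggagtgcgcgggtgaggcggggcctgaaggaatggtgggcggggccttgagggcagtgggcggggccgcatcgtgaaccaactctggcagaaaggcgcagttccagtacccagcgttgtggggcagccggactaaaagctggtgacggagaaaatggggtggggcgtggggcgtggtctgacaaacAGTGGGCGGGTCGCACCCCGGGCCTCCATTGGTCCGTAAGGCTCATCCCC
Fbxo6: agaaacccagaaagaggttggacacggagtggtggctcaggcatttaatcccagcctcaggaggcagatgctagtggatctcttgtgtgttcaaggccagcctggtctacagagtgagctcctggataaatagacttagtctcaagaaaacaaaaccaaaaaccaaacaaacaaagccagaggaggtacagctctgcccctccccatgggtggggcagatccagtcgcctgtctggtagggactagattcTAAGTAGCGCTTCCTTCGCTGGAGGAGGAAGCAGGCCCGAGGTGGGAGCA
Fbxo5: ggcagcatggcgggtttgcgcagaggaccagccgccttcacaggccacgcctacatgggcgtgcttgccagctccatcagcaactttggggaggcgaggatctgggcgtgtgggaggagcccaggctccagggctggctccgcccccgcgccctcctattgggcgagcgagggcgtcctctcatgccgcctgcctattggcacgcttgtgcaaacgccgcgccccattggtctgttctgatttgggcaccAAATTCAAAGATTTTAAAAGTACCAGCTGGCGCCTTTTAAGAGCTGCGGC

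Each window was searched on both strands for the core of the antioxidant response element, TGACNNNGC, to which NRF2 binds, and for the E2F consensus in the spellings TTTCCCGC, TTTCGCGC, TTTGCCGC and TTTGGCGC. No spelling of either motif was in the 4 windows printed. Over the 79 windows of the 58 members with a RefSeq entry, the antioxidant core was in 9 windows, or 11.4%, against 12.4% of all 32851 windows, and the E2F spellings were in 0 windows, against 2.26%. The members holding the antioxidant core were Fbxl12, Fbxl20, Fbxo8, Fbxo11, Fbxo27, Fbxo31, Fbxo40 and Fbxw2. After siKEAP1, Fbxo8 was higher (0.34 ± 0.07, adjusted p = 0.00198) and Fbxw2 lower (-0.57 ± 0.07, adjusted p = 2.14e-05), while Fbxl12, Fbxl20, Fbxo11 and Fbxo31 were not called, and Fbxo27 and Fbxo40 were not tested.

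Fbxo2 moved furthest of all members. It was at 6.90, 5.21 and 4.67 CPM in the siCONTROL libraries, 63.6, 62.7 and 59.5 after siKEAP1, 2.31, 1.40 and 2.44 after siCCNF and 7.70, 8.04 and 10.4 after siKEAP1/siCCNF. No group overlapped another, with siKEAP1 far above the rest and siCCNF lowest. Fbxo2 was 11.0-fold higher after siKEAP1 (3.46 ± 0.17, adjusted p = 9.51e-09) and lower after siCCNF (-1.42 ± 0.20, adjusted p = 7.23e-05). Adding siCCNF to siKEAP1 lowered it (-2.83 ± 0.16, adjusted p = 2.36e-08), and adding siKEAP1 to siCCNF raised it (2.05 ± 0.19, adjusted p = 4.18e-05). The double depletion ended just above siCONTROL (0.63 ± 0.18, adjusted p = 0.0118), a call that was lost without siCONTROL replicate 3 (0.50, adjusted p = 0.0546).

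Fbxo6 was at 31.9, 26.9 and 27.4 CPM in the siCONTROL libraries, 69.3, 69.4 and 66.1 after siKEAP1, 29.5, 28.3 and 29.3 after siCCNF and 35.4, 34.1 and 39.8 after siKEAP1/siCCNF. The siKEAP1 libraries were the highest and the siCCNF libraries lay among the siCONTROL ones. The rise after siKEAP1 was 1.25 ± 0.08, adjusted p = 9.51e-08, and siCCNF alone gave 0.02 ± 0.08, adjusted p = 0.891, with an interval of -0.16 to 0.19. In KEAP1-depleted cells siCCNF lowered Fbxo6 (-0.91 ± 0.08, adjusted p = 9.33e-07), though it stayed above siCONTROL (0.34 ± 0.08, adjusted p = 0.00417). Against siCCNF alone it was called (0.32 ± 0.08, adjusted p = 0.0342), and the call was lost in 9 of 12 fits that each left out 1 library, with an adjusted p of up to 0.122 over all alternatives.

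Fbxo44 had far fewer reads. It was at 2.73, 0.922 and 1.06 CPM in the siCONTROL libraries, 5.53, 4.25 and 4.69 after siKEAP1, 2.11, 2.76 and 1.69 after siCCNF and 3.21, 2.28 and 2.55 after siKEAP1/siCCNF. The siKEAP1 libraries were above all others, and siCONTROL replicate 1 one of the libraries that followed gene length, was more than 2-fold above the others of its group. The rise after siKEAP1 was 1.59 ± 0.33, adjusted p = 0.00192, and without siCONTROL replicate 1 it was 2.26. The fall from siKEAP1 to siKEAP1/siCCNF (-0.85 ± 0.31, adjusted p = 0.0350) was lost in 5 of 12 fits without 1 library. Without siCONTROL replicate 1, Fbxo44 was also called higher after siCCNF (1.12, adjusted p = 0.00645) and after both siRNAs (1.41, adjusted p = 0.00132), and its interaction was called too (-1.96, adjusted p = 0.00143).

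Fbxo17 went the other way. It was at 15.4, 12.6 and 12.9 CPM in the siCONTROL libraries, 7.80, 8.26 and 7.46 after siKEAP1, 20.8, 17.3 and 18.5 after siCCNF and 14.5, 14.9 and 17.3 after siKEAP1/siCCNF. The siKEAP1 libraries were lowest, every siCCNF library was above every siCONTROL library, and siKEAP1/siCCNF overlapped both siCONTROL and siCCNF. It was lower after siKEAP1 (-0.80 ± 0.12, adjusted p = 1.11e-04), higher after siCCNF (0.47 ± 0.11, adjusted p = 0.00337) and higher after both siRNAs than after siKEAP1 (0.99 ± 0.11, adjusted p = 1.17e-05).

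Of the genes around the chromosome 4 group, chosen for their position after its values were seen, Mad2l2 was not called after siKEAP1 (-0.11 ± 0.12, adjusted p = 0.531) and Draxin was not called either (0.22 ± 0.48, adjusted p = 0.752), and Disp3 had too few reads to be tested. Of a list of 10 NRF2 target genes, 10 were higher after siKEAP1, beside 20.4% of all genes. After siCCNF 1 was higher and 7 were lower, beside 22.5% and 25.5%. Most of the 10 thus moved with Fbxo2 in both and with Fbxo6 after siKEAP1 only. Their summed level was 856 to 917 CPM in siCONTROL, 2926 to 3010 after siKEAP1, 646 to 714 after siCCNF and 1256 to 1324 after both. The part of the remaining Keap1 mRNA in the smaller rise after siKEAP1/siCCNF was not tested.

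**Figure D3:**
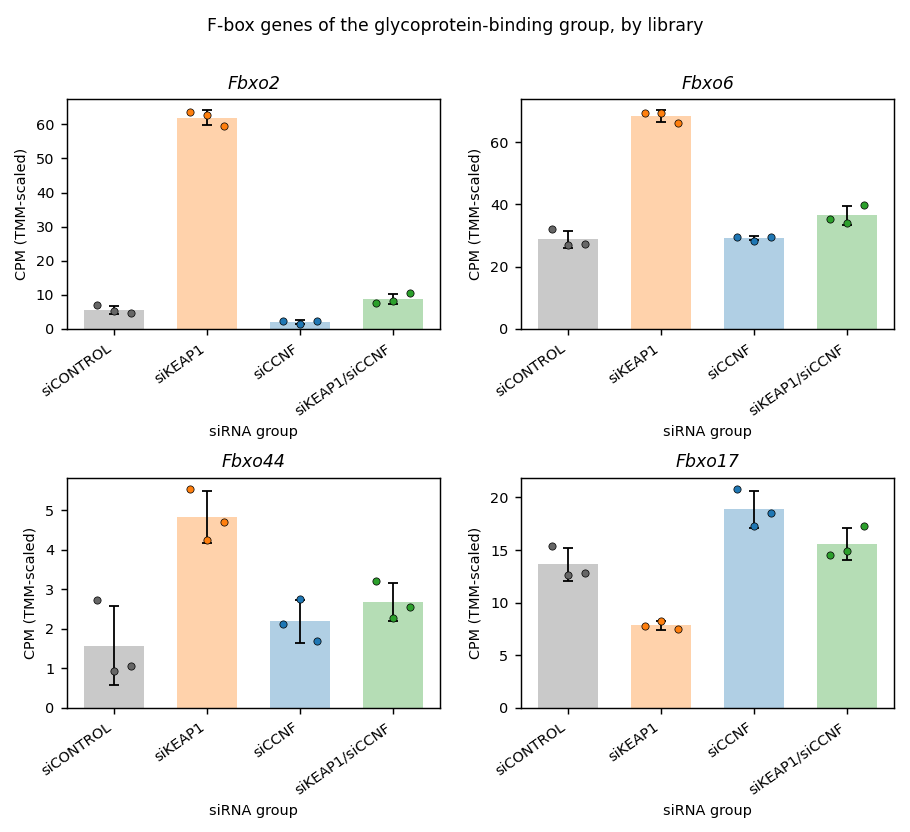
CPM with TMM-scaled library sizes of Fbxo2, Fbxo6, Fbxo44 and Fbxo17 (1 panel each, axes from 0) in the 4 siRNA groups, with a point per library and bars and whiskers for the mean and SD of 3 libraries. Fbxo2, Fbxo6 and Fbxo44 are highest after siKEAP1, and Fbxo17 is lowest there.

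Members with roles in the cell cycle and growth control did not share a direction. Of the 8 tested, 1 was higher and 3 lower after siKEAP1, and 4 were higher and 2 lower after siCCNF, beside 20.4%, 20.2%, 22.5% and 25.5% of all genes. Fbxo5, also known as EMI1, inhibits the anaphase-promoting complex until mitosis. It was at 53.6, 48.0 and 48.4 CPM in the siCONTROL libraries, 31.4, 31.8 and 33.6 after siKEAP1, 28.1, 31.4 and 29.6 after siCCNF and 31.0, 34.1 and 39.0 after siKEAP1/siCCNF. All depleted libraries lay below all siCONTROL libraries and overlapped one another in part. It was lower after siKEAP1 (-0.63 ± 0.09, adjusted p = 7.04e-05), after siCCNF (-0.75 ± 0.09, adjusted p = 1.19e-05) and after both (-0.53 ± 0.09, adjusted p = 2.66e-04), while siKEAP1/siCCNF against siCCNF gave 0.23 ± 0.09, adjusted p = 0.180. Genes of cycling cells moved with it against siCONTROL. Of 17 on a list, 13 were lower after siKEAP1, 17 after siCCNF and 17 after both, beside 20.2%, 25.5% and 23.6% of all genes. Their sum was 3405 to 3821 CPM in siCONTROL, 2772 to 2905 after siKEAP1, 1849 to 2082 after siCCNF and 2184 to 2436 after both. On adding siCCNF to siKEAP1, 11 of the 17 were lower and 0 higher, beside 26.9% and 24.1%, while Fbxo5 was not called. Whether fewer cycling cells or less Fbxo5 mRNA in each cell gave the lower values cannot be told apart in bulk RNA.

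Fbxw7, which marks cyclin E and MYC for degradation, rose where Fbxo5 fell. It was at 14.1, 18.2 and 16.6 CPM in the siCONTROL libraries, 21.5, 23.0 and 20.1 after siKEAP1, 25.9, 27.6 and 26.2 after siCCNF and 27.3, 26.0 and 22.3 after siKEAP1/siCCNF. Every depleted library was above every siCONTROL library. The differences from siCONTROL were 0.41 ± 0.11, adjusted p = 0.00835 for siKEAP1, 0.71 ± 0.11, adjusted p = 1.13e-04 for siCCNF and 0.63 ± 0.11, adjusted p = 3.22e-04 for both. Fbxw5, whose substrates include a centriole assembly protein, split the depletions. Its values were 49.6, 48.3 and 50.1 CPM in the siCONTROL libraries, 42.0, 43.2 and 37.4 after siKEAP1, 74.3, 75.9 and 72.5 after siCCNF and 72.8, 68.3 and 77.5 after siKEAP1/siCCNF. It was lower after siKEAP1 (-0.27 ± 0.07, adjusted p = 0.00821) and higher after siCCNF (0.59 ± 0.07, adjusted p = 1.69e-05) and after both (0.56 ± 0.07, adjusted p = 3.00e-05), where siKEAP1/siCCNF and siCCNF overlapped.

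Fbxo31, an adaptor for cyclin D1, was lower after siCCNF (-0.40 ± 0.08, adjusted p = 0.00134) and lower after both siRNAs than after siKEAP1 (-0.43 ± 0.08, adjusted p = 7.24e-04). Against siCONTROL the double depletion was also called (-0.24 ± 0.08, adjusted p = 0.0289), but not without siCONTROL replicate 1 (-0.19, adjusted p = 0.0777) or siKEAP1/siCCNF replicate 2 (-0.21, adjusted p = 0.0965). Fbxo28 was lower after siKEAP1 (-0.52 ± 0.07, adjusted p = 5.40e-05) and higher in KEAP1-depleted cells on adding siCCNF (0.37 ± 0.07, adjusted p = 5.83e-04). Its difference after siCCNF alone (0.18 ± 0.07, adjusted p = 0.0468) was lost in 10 of 12 fits without 1 library. Fbxo7, linked to inherited parkinsonism, was higher after both siRNAs (0.47 ± 0.11, adjusted p = 0.00328). Its difference after siCCNF (0.34 ± 0.11, adjusted p = 0.0208) was lost in 3 of 12 such fits. Fbxw11, a β-TrCP protein that can also recognise NRF2, differed from siCONTROL by -0.12, 0.13 and 0.12 after siKEAP1, siCCNF and both, with none called, and was called for siKEAP1/siCCNF against siKEAP1 (0.24 ± 0.07, adjusted p = 0.0112). Fbxo4 was called in no comparison, and its differences from siCONTROL lay between -0.12 and -0.06. Fbxo43, a meiotic relative of Fbxo5, had 24 reads in all and was not tested.

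Of the 4 tested members known from muscle, 2 were higher and 0 lower after siKEAP1, and 0 were higher and 1 lower after siCCNF, beside 20.4%, 20.2%, 22.5% and 25.5% of all genes. Fbxo32, also called atrogin-1, is an adaptor that rises in wasting muscle. It was at 33.7, 36.5 and 35.3 CPM in the siCONTROL libraries, 56.9, 51.6 and 57.0 after siKEAP1, 21.4, 22.0 and 19.7 after siCCNF and 21.8, 23.0 and 23.5 after siKEAP1/siCCNF. The siKEAP1 libraries were above and all CCNF-depleted libraries below those of siCONTROL. Fbxo32 was higher after siKEAP1 (0.65 ± 0.07, adjusted p = 1.01e-05) and lower after siCCNF (-0.74 ± 0.07, adjusted p = 3.07e-06) and after both (-0.62 ± 0.07, adjusted p = 1.64e-05). The fall on adding siCCNF to siKEAP1 was 2.42-fold (-1.27 ± 0.07, adjusted p = 2.11e-08).

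Fbxo21, another gene tied to muscle atrophy, was at 41.4, 40.6 and 41.7 CPM in the siCONTROL libraries, 66.9, 63.8 and 69.6 after siKEAP1, 39.8, 36.0 and 37.5 after siCCNF and 48.8, 43.6 and 42.0 after siKEAP1/siCCNF. The siKEAP1 libraries were far the highest, and the siCCNF libraries lay just below and the siKEAP1/siCCNF libraries just above those of siCONTROL, without overlap. It was higher after siKEAP1 (0.70 ± 0.07, adjusted p = 5.76e-06) and lower on adding siCCNF (-0.58 ± 0.07, adjusted p = 2.04e-05). Fbxo30 (MUSA1) was called only for siKEAP1/siCCNF against siKEAP1 (-0.23 ± 0.09, adjusted p = 0.0426), a call lost in 9 of 12 fits without 1 library. Fbxl22, an adaptor of the heart sarcomere, was near 0.651 CPM in siCONTROL and was called in no comparison. Fbxl22 overlaps Herc1 on the opposite strand, which had 32994 reads beside 262 for Fbxl22, so their reads may not be separate. Fbxo40, a muscle adaptor for the insulin signalling protein IRS1, did not pass the filter. It had 0 reads in each siCONTROL and siCCNF library, 13, 12 and 9 reads in the siKEAP1 libraries and 1 read in each siKEAP1/siCCNF library. Fbxo40 was therefore not among the 15122 genes tested. The alternative without a filter on low counts included it, and its result there is not reported here. The differentiation genes of muscle did not follow Fbxo32 after siKEAP1. Of 10 tested, 1 was higher and 9 were lower, beside 20.4% and 20.2% of all genes. Against siCONTROL they mostly moved with Fbxo32 in the CCNF-depleted groups. Of the 10, 9 were lower after siCCNF and 10 after both siRNAs, beside 25.5% and 23.6% of all genes. On adding siCCNF to siKEAP1, where Fbxo32 fell, 5 were higher and 1 lower, beside 24.1% and 26.9%.

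The adaptors that act on BACH1, BTB proteins or iron-regulatory protein were mostly not called. Fbxw11, which can recognise NRF2 itself, is described above with the cell cycle members. Fbxo22 and Fbxl17 act on BACH1, a repressor that competes with NRF2 at DNA, Fbxl17 also clears misassembled BTB proteins, and Fbxl5 controls iron-regulatory protein. None of the 3 was called in any depletion against siCONTROL. After siKEAP1 the intervals were -0.01 to 0.34 for Fbxo22, -0.06 to 0.38 for Fbxl17 and -0.11 to 0.19 for Fbxl5. Fbxo22 was at 46.0, 36.7 and 39.6 CPM in the siCONTROL libraries, 45.6, 43.6 and 48.1 after siKEAP1, 35.3, 37.6 and 35.4 after siCCNF and 39.0, 38.1 and 37.5 after siKEAP1/siCCNF. The siCONTROL libraries spread over most of the other values, and Fbxo22 was called for siKEAP1/siCCNF against siKEAP1 (-0.26 ± 0.08, adjusted p = 0.0171), though not without siKEAP1 replicate 3 (-0.22, adjusted p = 0.0756). It was called higher after siKEAP1 without siCONTROL replicate 1 (0.25, adjusted p = 0.0116) and lower after siCCNF without siCONTROL replicate 2 (-0.24, adjusted p = 0.0320).

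Fbxl21, which acts on the cryptochromes of the circadian clock, had few reads. It was at 0.583, 0.488 and 0.771 CPM in the siCONTROL libraries, 3.44, 1.62 and 2.98 after siKEAP1, 0.171, 0.272 and 0.403 after siCCNF and 0.635, 1.39 and 0.791 after siKEAP1/siCCNF. Every siKEAP1 library was above every library of the other groups. Fbxl21 was higher after siKEAP1 (2.11 ± 0.40, adjusted p = 8.82e-04) and lower on adding siCCNF (-1.48 ± 0.36, adjusted p = 0.00426). The difference between siKEAP1/siCCNF and siCCNF (1.73 ± 0.44, adjusted p = 0.0401) was lost in 9 of 12 fits without 1 library.

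Further members named by the size of their change were mostly WD40 or leucine-rich repeat proteins. Fbxw4, altered in limb malformation, was at 35.4, 33.2 and 29.2 CPM in the siCONTROL libraries, 22.7, 23.7 and 23.2 after siKEAP1, 62.7, 44.5 and 49.8 after siCCNF and 45.7, 45.4 and 44.4 after siKEAP1/siCCNF. The siKEAP1 libraries were lowest and every CCNF-depleted library was above every siCONTROL library. It was lower after siKEAP1 (-0.49 ± 0.11, adjusted p = 0.00351), and higher after siCCNF (0.68 ± 0.11, adjusted p = 2.02e-04), after both (0.47 ± 0.11, adjusted p = 0.00363) and on adding siCCNF to siKEAP1 (0.96 ± 0.11, adjusted p = 1.16e-05). Fbxw4 overlaps Gm17018 on the opposite strand, which had 5420 reads beside 12447 for Fbxw4. Whether counting used the strand is not given in the sources used here, so their reads may not be separate.

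Fbxl19, which carries a zinc finger for unmethylated CpG, had the same order of groups. It was at 57.3, 52.2 and 50.4 CPM in the siCONTROL libraries, 46.8, 43.7 and 40.7 after siKEAP1, 89.9, 78.0 and 81.9 after siCCNF and 75.5, 76.0 and 76.7 after siKEAP1/siCCNF. It was higher after siCCNF (0.64 ± 0.08, adjusted p = 1.51e-05), after both (0.51 ± 0.08, adjusted p = 1.21e-04) and on adding siCCNF to siKEAP1 (0.80 ± 0.08, adjusted p = 2.10e-06), and lower after siKEAP1 (-0.28 ± 0.08, adjusted p = 0.00965), the last lost without siKEAP1 replicate 3 (-0.24, adjusted p = 0.0512). By subfamily, 5 of the 9 tested Fbxw genes were higher and 1 lower after siCCNF, where all genes gave 22.5% and 25.5%. On adding siCCNF to siKEAP1, 6 Fbxw genes were higher and 0 lower, 3 of 31 Fbxo genes were higher and 13 lower, and 2 of 18 Fbxl genes were higher and 3 lower, beside 24.1% and 26.9% of all genes. Differences between subfamilies were not tested.

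Fbxw2 was at 76.1, 70.4 and 77.0 CPM in the siCONTROL libraries, 52.1, 48.3 and 50.0 after siKEAP1, 76.0, 71.8 and 74.7 after siCCNF and 61.1, 59.5 and 67.7 after siKEAP1/siCCNF, lowest after siKEAP1. It was lower after siKEAP1 (-0.57 ± 0.07, adjusted p = 2.14e-05) and after both (-0.25 ± 0.07, adjusted p = 0.00951). Fbxw8 was lower after siKEAP1 (-0.32 ± 0.07, adjusted p = 0.00233) and siCCNF (-0.25 ± 0.07, adjusted p = 0.00852). Its call after both (-0.22 ± 0.07, adjusted p = 0.0192) was lost in 3 of 12 fits without 1 library. Fbxl16, an unusual member that does not join CUL1, was at 25.0, 24.4 and 24.9 CPM in the siCONTROL libraries, 44.1, 38.3 and 36.0 after siKEAP1, 22.9, 20.6 and 19.9 after siCCNF and 24.9, 22.4 and 20.4 after siKEAP1/siCCNF, and was higher after siKEAP1 (0.67 ± 0.10, adjusted p = 9.36e-05) and lower on adding siCCNF (-0.80 ± 0.10, adjusted p = 1.44e-05). Fbxl2 was lower after siKEAP1 (-0.34 ± 0.09, adjusted p = 0.00616) and lower after both siRNAs than after siCCNF (-0.33 ± 0.08, adjusted p = 0.0396), the latter lost in 10 of 12 fits. Fbxl2 overlaps Ubp1 on the opposite strand, which had 26412 reads beside 7123. Fbxl7, an adaptor for Aurora A, was lower after both than in siCONTROL (-0.61 ± 0.16, adjusted p = 0.00654) and than after siKEAP1 (-0.90 ± 0.16, adjusted p = 3.38e-04).

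Fbxo16 and Fbxo47 were near the limit of detection. Fbxo16 was at 0.852, 1.09 and 0.722 CPM in the siCONTROL libraries, 0.883, 1.01 and 0.789 after siKEAP1, 0.285, 0.233 and 0.510 after siCCNF and 0.198, 0.462 and 0.615 after siKEAP1/siCCNF, and was lower after siCCNF (-1.32 ± 0.41, adjusted p = 0.0167), a call lost in 3 of 12 fits without 1 library, and on adding siCCNF to siKEAP1 (-1.07 ± 0.40, adjusted p = 0.0397), lost in 7. Fbxo47 was at 0.583, 0.651 and 1.16 CPM in the siCONTROL libraries, 1.44, 1.42 and 1.89 after siKEAP1, 0.798, 0.0778 and 0.590 after siCCNF and 0.913, 0.370 and 0.0879 after siKEAP1/siCCNF, and its fall from siKEAP1 to siKEAP1/siCCNF (-1.77 ± 0.62, adjusted p = 0.0297) was lost in 5 of 12. The values of both genes overlapped within several pairs of groups and rest on few reads.

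**Figure D4:**
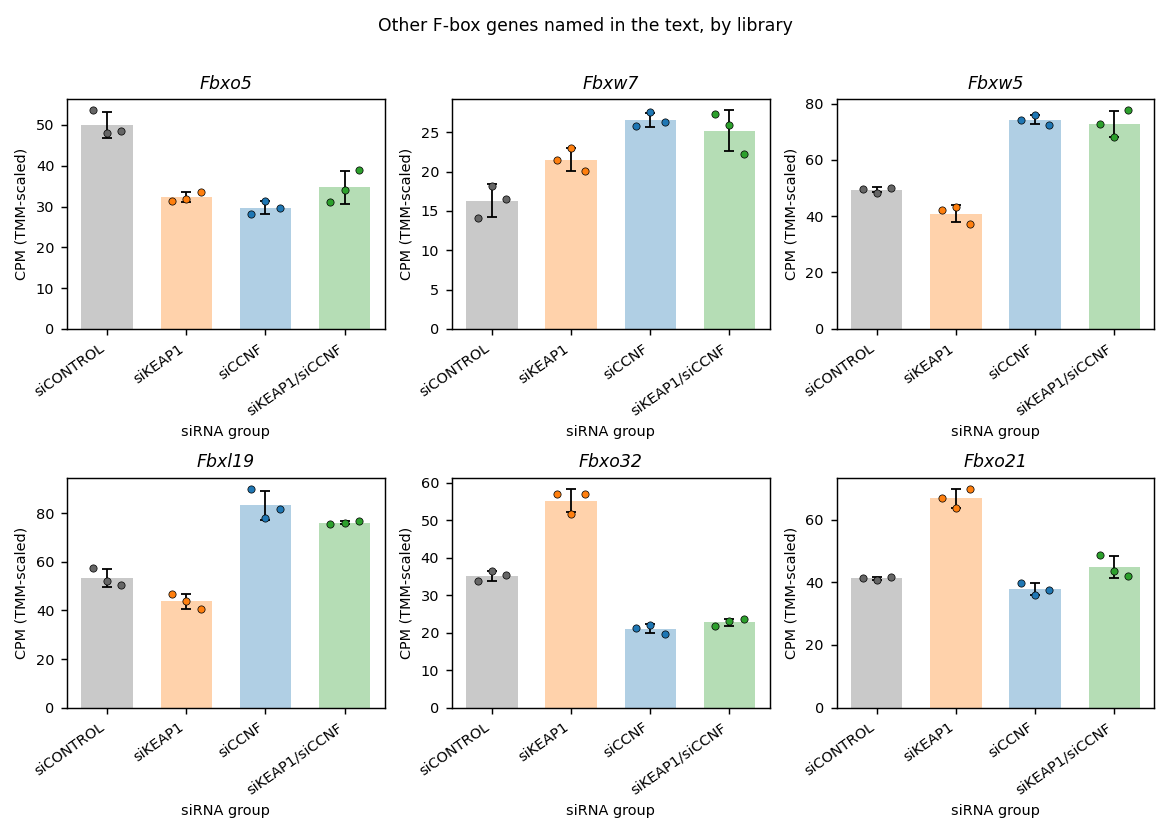
CPM with TMM-scaled library sizes of Fbxo5, Fbxw7, Fbxw5, Fbxl19, Fbxo32 and Fbxo21 (1 panel each, axes from 0) by siRNA group, with a point per library and bars and whiskers for the mean and SD of 3 libraries. Fbxo5 is lower and Fbxw7 higher in all depleted groups, Fbxw5 and Fbxl19 are higher in both CCNF-depleted groups, and Fbxo32 and Fbxo21 are highest after siKEAP1.

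CCNF was depleted on 2 backgrounds in comparisons that share no library, siCCNF against siCONTROL and siKEAP1/siCCNF against siKEAP1. Of 21 members called in the first and 27 in the second, 13 were called in both, which is 61.9% of the first and 48.1% of the second. All 13 had the same direction. Over all 15122 genes these shares were 68.3% and 64.2%, and 93.1% of the genes called in both had the same direction. Higher in both were Fbxl14, Fbxl19, Fbxo17, Fbxo28, Fbxw4, Fbxw5, Fbxw9 and Fbxw17, and lower in both were Fbxo2, Fbxo8, Fbxo16, Fbxo31 and Fbxo32. Across the 58 tested members the log2 differences of the 2 comparisons had a Pearson r of 0.77, beside 0.57 over all genes, a description across genes, which are not independent replicates. KEAP1 depletion on the 2 backgrounds, siKEAP1 against siCONTROL and siKEAP1/siCCNF against siCCNF, had 21 and 5 calls. All 5 of the latter, Fbxo2, Fbxo6 and Fbxl21 higher and Fbxo28 and Fbxl2 lower, were called in the same direction in the former. Over all genes, 87.6% of the genes called in the latter were called in the former, and 89.7% of those in both had the same direction.

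**Figure D5:**
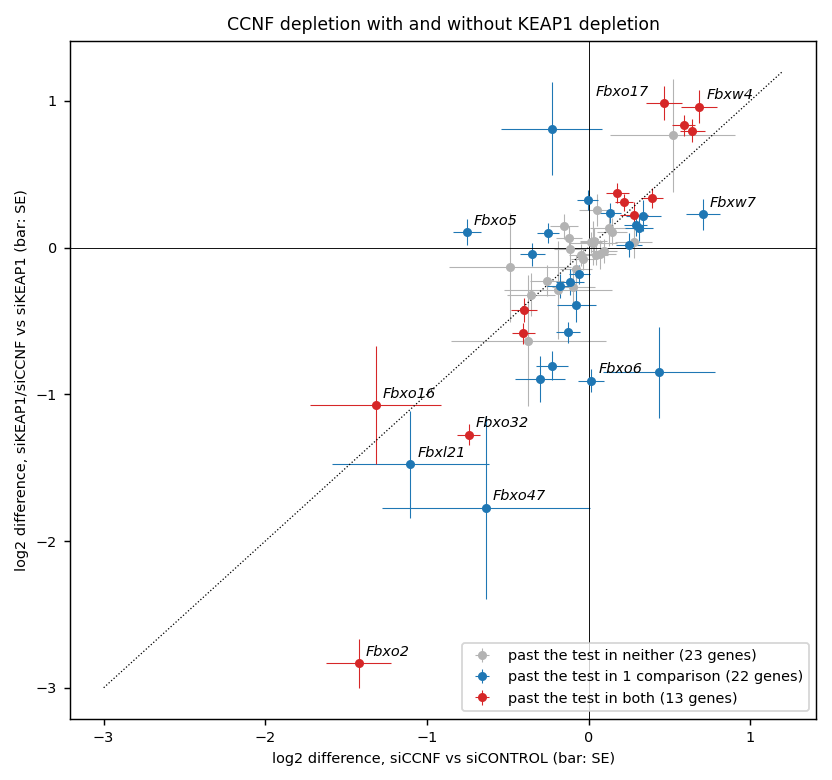
Log2 difference of each of the 58 tested F-box protein genes after siCCNF against siCONTROL (horizontal axis) and after siKEAP1/siCCNF against siKEAP1 (vertical axis), with bars for the standard error and a dotted line of equal differences. The 13 genes past the test in both comparisons (red) lie in the lower left or upper right, and Fbxo2 is the lowest point at -1.42 and -2.83.

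Whether the effect of siKEAP1 differed between CCNF-depleted and control cells was tested as an interaction, the first effect minus the second. It was positive for 4 members, beside 10.6% of all genes, and negative for 6, beside 10.5%. The positive ones were Fbxo5 (0.86 ± 0.12, adjusted p = 3.39e-04), Fbxo17 (0.52 ± 0.16, adjusted p = 0.0339), Fbxw8 (0.35 ± 0.10, adjusted p = 0.0215) and Fbxw2 (0.33 ± 0.10, adjusted p = 0.0275). For Fbxo5 the fall after siKEAP1 of -0.63 stood beside 0.23 in CCNF-depleted cells. The negative ones were Fbxo2 (-1.41 ± 0.26, adjusted p = 0.00183), Fbxo6 (-0.92 ± 0.11, adjusted p = 1.14e-04), Fbxl16 (-0.58 ± 0.14, adjusted p = 0.00868), Fbxo32 (-0.53 ± 0.10, adjusted p = 0.00256), Fbxw7 (-0.48 ± 0.15, adjusted p = 0.0350) and Fbxo21 (-0.45 ± 0.10, adjusted p = 0.00688). Leaving out 1 library at a time ended the call in 9 of 12 fits for Fbxw7, 6 for Fbxo17, 5 for Fbxw2 and 5 for Fbxw8, and in 0 for the other 6. For Fbxo32 the rise of 0.65 stood beside 0.12, and for Fbxo21 the rise of 0.70 beside 0.25. Keap1 itself had an interaction of 0.98 ± 0.11, adjusted p = 6.99e-05, from the weaker depletion given above, whose part in these values was not tested.

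The other components of SCF ligases showed no common direction. Of 28 genes for the SCF core, its NEDD8 pathway and its regulators, 5 were higher and 5 lower after siKEAP1, where all genes gave 20.4% and 20.2%. After siCCNF 3 were higher and 2 lower, beside 22.5% and 25.5%, and after both siRNAs 4 were higher and 2 lower, beside 20.6% and 23.6%. On adding siCCNF to siKEAP1, 7 were higher and 7 lower, beside 24.1% and 26.9%. Between siKEAP1/siCCNF and siCCNF edgeR called 0, with 1 at an unadjusted p under 0.05. The scaffold Cul1 was lower after siCCNF (-0.47 ± 0.05, adjusted p = 1.18e-05) and after both (-0.42 ± 0.05, adjusted p = 3.33e-05). Cks1b, the cofactor with which SKP2 recognises p27, was lower after siCCNF (-1.03 ± 0.10, adjusted p = 2.18e-06), and the ubiquitin-conjugating enzyme gene Cdc34 was higher after siKEAP1 (0.68 ± 0.13, adjusted p = 8.16e-04) and siCCNF (0.62 ± 0.13, adjusted p = 0.00139). Of F-box genes with other symbols, Skp2 was at 92.9, 85.3 and 85.1 CPM in the siCONTROL libraries, 52.8, 53.1 and 52.3 after siKEAP1, 43.9, 46.0 and 47.0 after siCCNF and 54.2, 53.1 and 47.8 after siKEAP1/siCCNF and was lower in all depletions, with differences of -0.74, -0.94 and -0.76, with adjusted p of 1.84e-06, 1.75e-07 and 1.35e-06. Btrc, the other β-TrCP gene, was higher after siCCNF (0.46 ± 0.08, adjusted p = 2.54e-04) and not called after siKEAP1 (0.01 ± 0.08, adjusted p = 0.904).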

How the data were processed

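RNA-seq of 12 C2C12 libraries was analysed from the deposited table of 54532 genes, with groups from the sample labels and columns matched to samples by their descriptions. The labels give poly(A) enrichment, and a service provider made the libraries and the table. The authors deposited raw read counts per gene and FPKM values, which are scaled for gene length and depth. The submitters' notes name HISAT2 and GRCm39, but the deposited coordinates are those of GRCm38. The counting tool, strand setting and treatment of reads shared by similar genes are not given in the sources used here. Columns with the authors' own fold changes and p-values were not used.

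Counts were tested with edgeR 4.0.16 in R 4.3.3 (filterByExpr, TMM, quasi-likelihood fit of 4 group means over all libraries), with 5 pairwise contrasts and the interaction, Benjamini-Hochberg adjustment over 15122 genes and a threshold of 0.05. The study's threshold of 2-fold is given beside it. The fit was tested on simulated data. It missed most of the known changes in genes under about 1 CPM and fell short of the pass mark first set, which was then lowered, so a low gene that was not called may still have changed. Replicates differed by more than sampling noise. CPM values use TMM-scaled library sizes, levels between genes were compared by FPKM, and totals of 18464209 to 37743198 counts set the precision. Named members were those of role lists, the 3 largest rises and falls per pairwise contrast, and members with an interaction. The members and lists were chosen with earlier results of these data known. Alternatives were DESeq2 1.42.0, limma 3.58.1 on log2(FPKM + 1), total library sizes, other filters, the replicate number as a block, the compared libraries only, removal of a gene length trend, and leaving out libraries. A planned comparison of protein sequences was not run, and some genes are counted in the totals but not reported here by name.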

Additional observations from a re-analysis of the deposited data

Results flagged for a closer look

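For 10 members siKEAP1 had another effect when CCNF was depleted than in control cells by the interaction test (edgeR's quasi-likelihood test, adjusted p under 0.05). The values are the interaction, the siKEAP1 effect in control and then in CCNF-depleted cells, and in how many of 12 fits without 1 library the call was lost. A smaller rise or a turn to a fall was found for Fbxo2 (-1.41, from 3.46 to 2.05, call lost in 0 of 12), Fbxo6 (-0.92, from 1.25 to 0.32, call lost in 0 of 12), Fbxl16 (-0.58, from 0.67 to 0.10, call lost in 0 of 12), Fbxo32 (-0.53, from 0.65 to 0.12, call lost in 0 of 12). All of these were smaller rises, as was that of Fbxo21 (-0.45, from 0.70 to 0.25, call lost in 0 of 12). Fbxw7 (-0.48, from 0.41 to -0.08, call lost in 9 of 12) turned to a fall that was not itself called. A smaller fall or a turn to a rise was found for Fbxo5 (0.86, from -0.63 to 0.23, call lost in 0 of 12), Fbxo17 (0.52, from -0.80 to -0.28, call lost in 6 of 12), and for Fbxw8 (0.35, from -0.32 to 0.03, call lost in 5 of 12) and Fbxw2 (0.33, from -0.57 to -0.24, call lost in 5 of 12). The interaction was called for members about as often as for all genes, and Keap1 was depleted less in the double depletion than by siKEAP1 alone.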

How the results depend on the processing

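All 22 alternatives were listed with earlier results of these data known. The numbers of members called were 21 after siKEAP1, 21 after siCCNF, 21 after both, 27 for siKEAP1/siCCNF against siKEAP1, 5 against siCCNF and 10 for the interaction. Asking also for a 2-fold change left 4, 2, 0, 5, 2 and 1. Leaving out 1 library at a time gave 20 to 26, 17 to 22, 17 to 22, 20 to 30, 1 to 6 and 6 to 11, the interaction count of 6 being without siCCNF replicate 2 or 3, and the count of 1 against siCCNF being without siCCNF replicate 1 or 3. With the compared libraries only, siKEAP1/siCCNF against siCONTROL called 12 and against siCCNF 2. The last comparison called 3 without a filter on low counts, 3 with limma on log2(FPKM + 1) and 9 without both libraries that follow gene length. The deviations of same-numbered libraries correlated at -0.27 to 0.20 over 18 pairs, with a median of 0.04. Libraries with different numbers gave -0.28 to 0.39 over 36 pairs, with a median of -0.01. These correlations cannot decide whether the replicate numbers pair the libraries, since some deviations within groups of 3 follow gene length. With the replicate block the counts were 20, 21, 21, 25, 2 and 12. The 2-fold limit can only remove calls, and the cause of the other shifts was not tested. Of 180 results for 30 named members, 79 were called. Of these 23 lost the call under some alternative and 0 reversed, and 26 others gained one. Below about 1 CPM, where Fbxl21, Fbxo16 and Fbxo47 lie in siCONTROL, few reads limit the calls.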
